A study of Drosophila melanogaster with 2 samples.

Results

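The snoRNA genes of Drosophila melanogaster and the genes that carry them were examined in a map of chromatin precipitated with a tagged form of the homeodomain protein Buttonless (btn). The members were the 269 genes with the biotype snoRNA among 18358 genes of the annotation, transposable elements left out, and the 92 genes whose bodies hold them on the same strand. Where several genes held a snoRNA gene, the shortest was taken as its host, and the 3 genes that hold one without being the shortest were left out of the genes without a snoRNA gene. Of the snoRNA genes, 247 lay in a host and 22 did not. The small Cajal body RNAs (scaRNAs), which carry the same biotype, were included.

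The chromatin came from whole embryos of both sexes aged 0 to 14 h. The embryos were of 1 stable transgenic line in which btn carries eGFP at its C terminus, and the antibody was raised against GFP. Chromatin was sheared by sonication to 200 to 800 bp. The labels number the 2 biological replicates 2 and 3 and place them in 1 group. They list a possible control experiment for both, but embryos without the tag were not analysed here, so signal that depends on btn and signal from the antibody or from open chromatin cannot be told apart. btn is known as a gene of the dorsal median cells, a small mesodermal population, whereas the material was the whole embryo. No cell type is resolved.

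The authors' optimal peak list, made by irreproducible discovery rate (IDR) analysis, holds 2153 regions in build dm6. They are the 2153 regions of highest signal among the 30000 candidates from the pooled replicates. The signal is the authors' own value per region on a scale of their making. It was used only to rank regions within a list, with rank 1 the strongest. In the optimal list it ran between 70.5 and 1220.2, with a median of 105. A summit is the position of the peak's maximum. Summits in coding exons were left out of the counts near snoRNA genes and start sites, which removed 19 optimal ones. Depth is unknown, since no list gives a read count.

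Small nucleolar RNAs guide the chemical modification of ribosomal and spliceosomal RNA by base pairing with their targets. The C/D box class directs 2′-O-methylation by fibrillarin, and the H/ACA box class directs pseudouridylation by dyskerin, called Nop60B in the fly. Most fly snoRNAs have no promoter of their own. They are cut from the introns of a host transcript after splicing, and many hosts encode ribosomal proteins or other parts of the translation machinery. Other hosts, the Uhg genes, make spliced transcripts that code for no known protein. Ribosomal protein genes of the fly often start transcription at a pyrimidine-rich initiator, the TCT motif, in place of the usual initiator.

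The annotation showed this arrangement. Of the 247 hosted snoRNA genes, 227 lay in an intron of the host and 20 overlapped a host exon. Ribosomal protein hosts numbered 28 and held 71 snoRNA genes. Another 54 protein-coding hosts held 121, and 10 noncoding hosts held 55. Arpc2, which encodes a subunit of the actin-nucleating Arp2/3 complex, held the most, with 17. Uhg1 held 16, dom (the ATPase of the Domino chromatin remodeller) held 15, RpS5a held 14 and Uhg5 held 11.

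The start sites of ribosomal protein hosts are shown first because 18 of these 28 hosts had an optimal summit within 500 bp of an annotated start site. The 9 sequences below run for 60 bases, 40 before and 20 from the 5′-most annotated transcription start site (TSS), on the strand of the gene. Capitals mark CTTT starting within 10 bp of that TSS. They were read from the RefSeq copy of the Release 6 assembly (dm6). The first 6 belong to the ribosomal protein hosts with the strongest optimal summits: RpL13A at chr3R:5624434-5624493 (+), RpL14 at chr3L:8600966-8601025 (+), RpL30 at chr2L:19009287-19009346 (-), RpL22 at chrX:765111-765170 (-), RpS4 at chr3L:13041716-13041775 (+) and RpS20 at chr3R:20822141-20822200 (+). The last 3 had a weak pooled candidate or none: RpL15 at chr3L:27267215-27267274 (+), RpS6 at chrX:7901312-7901371 (-) and RpS9 at chr3L:9511512-9511571 (-). CTTT stands within 10 bp of the 5′-most TSS in 3 of the first 6 and in all 3 of the last. The RpS4 summit was nearest to another annotated TSS of the gene, at chr3L:13041801.
RpL13A: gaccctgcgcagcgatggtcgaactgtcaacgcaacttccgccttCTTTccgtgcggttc
RpL14: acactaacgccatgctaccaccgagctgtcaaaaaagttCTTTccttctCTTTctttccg
RpL30: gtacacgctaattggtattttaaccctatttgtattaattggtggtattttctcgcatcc
RpL22: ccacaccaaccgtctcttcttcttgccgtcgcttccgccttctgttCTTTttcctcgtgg
RpS4: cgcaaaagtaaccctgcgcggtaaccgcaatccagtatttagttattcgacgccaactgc
RpS20: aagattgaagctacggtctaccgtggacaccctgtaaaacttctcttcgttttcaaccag
RpL15: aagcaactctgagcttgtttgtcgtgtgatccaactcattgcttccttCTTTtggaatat
RpS6: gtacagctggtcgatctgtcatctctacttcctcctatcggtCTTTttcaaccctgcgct
RpS9: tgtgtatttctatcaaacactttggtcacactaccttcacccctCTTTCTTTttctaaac

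Next are 4 of the 11 snoRNA genes that had an optimal summit within 500 bp, shown whole. They lay 216 to 490 bp from the summit, so none holds it. Me18S-C1968, which holds its summit, is not shown. Capitals mark TGATGA near the 5′ end, the sequence of box C, and CTGA near the 3′ end, the sequence of box D. Or-CD11a at chr3L:3222475-3222541 (-), U49:66Da at chr3L:8601473-8601552 (+) and Me28S-A774b at chr3L:13023580-13023652 (+) hold both words. The scaRNA MeU1:95C-A24 at chr2L:901976-902082 (-) holds CTGA alone.
snoRNA:Or-CD11a: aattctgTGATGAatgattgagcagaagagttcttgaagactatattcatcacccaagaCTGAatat
snoRNA:U49:66Da: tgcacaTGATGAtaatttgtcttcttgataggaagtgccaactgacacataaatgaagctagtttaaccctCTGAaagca
snoRNA:Me28S-A774b: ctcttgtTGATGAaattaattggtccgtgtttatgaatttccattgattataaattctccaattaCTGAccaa
scaRNA:MeU1:95C-A24: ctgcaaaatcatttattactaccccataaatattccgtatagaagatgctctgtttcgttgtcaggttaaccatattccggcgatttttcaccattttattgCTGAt

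Few snoRNA genes had an optimal summit close by. Of the 269, 11 (4.09%) had one within 500 bp of the gene, and these 11 shared 9 summits. For comparison, 1.75% of all bases outside coding exons and 1.77% of intron bases of protein-coding genes lay within 500 bp of an optimal summit. A snoRNA gene is longer than 1 base, which raises its share somewhat against the shares of bases. Among other genes for small RNAs, which also span more than 1 base, 7 of 290 tRNA genes (2.41%) and 8 of 32 snRNA genes (25.0%) had such a summit. A pooled candidate of any strength lay within 500 bp of 66 snoRNA genes (24.5%), and 55 of these had no optimal one. The strongest candidate at each of those 55 had a signal between 19.4 and 65.4, with a median of 24.5. Within 500 bp of snoRNA genes there were 50 pooled candidates, of which 9 were optimal, against 9.68% of the 21960 candidates farther away. With 1 group and 2 libraries, no test of these differences was made, here or below.

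The name of a snoRNA gene gives its class in part. Of the 112 genes named Psi, guides of pseudouridylation, 1 (0.893%) had an optimal summit within 500 bp. Of the 87 named Me, guides of methylation, 3 (3.45%) had one, and of the 70 with other names 7 had one. The other names include orphans (Or-CD, Or-ACA), whose target is not given by the name, and the U3 genes. The 3 U3 genes, whose RNA is needed for processing of the ribosomal precursor, had weak candidates only: 31.3 at U3:54Aa, 27 at U3:54Ab and 28.3 at U3:9B.

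Of the 7 hosted snoRNA genes with an optimal summit, 5 were within 500 bp of a host TSS. Of the 35 snoRNA genes that lay within 500 bp of a host TSS, 5 (14.3%) had an optimal summit within 500 bp. Of the 212 hosted snoRNA genes farther from any host TSS, 2 (0.943%) had one. With the strongest 2153 candidates of 1 replicate in place of the optimal list, the count over these 212 was 0 in replicate 2 and 3 in replicate 3. By location, it was 6 of 227 (2.64%) in introns and 1 of 20 overlapping a host exon. A host with an optimal summit at its promoter held 89 of the snoRNA genes, and 5 of these (5.62%) were themselves within 500 bp of an optimal summit.

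**Figure D1:**
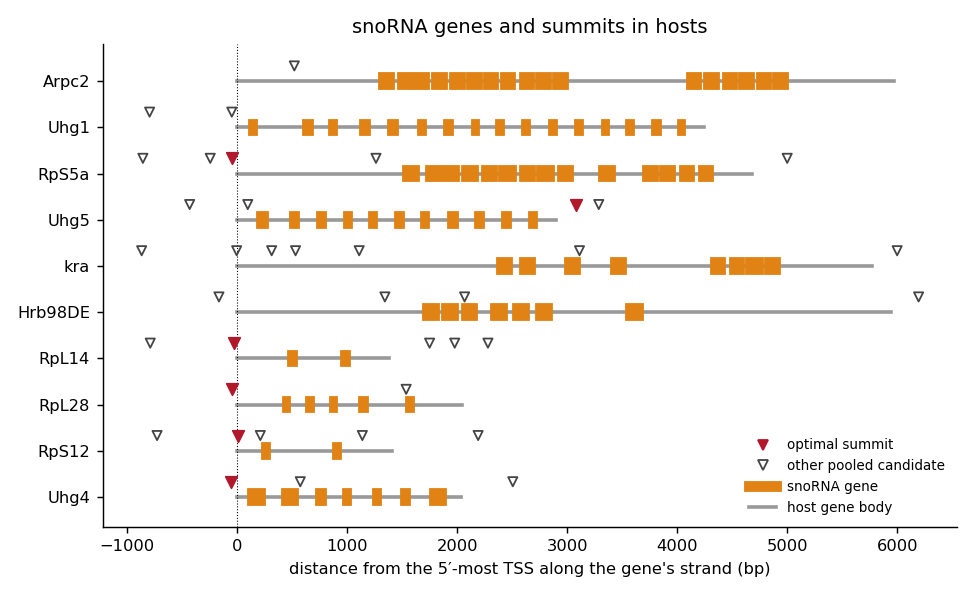
Positions of snoRNA genes (orange bars) in 10 hosts drawn along each gene's strand, with the 5′-most TSS at 0 on the horizontal axis (bp). Filled triangles are optimal summits and open ones are other pooled candidates, those with the summit in a coding exon included. In RpS5a, RpL14, RpL28, RpS12 and Uhg4 the optimal summit stands at the TSS, in Uhg5 it stands 3085 bp from it and past the end of the gene, and Arpc2, Uhg1, kra and Hrb98DE have none.

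At 4 of the 9 summits the host promoter was within 500 bp. The Uhg4 summit, in the peak chr2R:9095121-9095281, was 52 bp upstream of the TSS of this noncoding host and 151 bp from Psi28S-2949 and 464 bp from Or-aca5. Its signal was 170.3, rank 398, and it ranked 378 in replicate 2 and 413 in replicate 3. Both replicates thus placed it among their strongest candidates.

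The other 3 lay at ribosomal protein hosts. The RpL14 summit at chr3L:8600881-8601071 was 23 bp upstream of the TSS and 490 bp from U49:66Da, with a signal of 266 and rank 146. It ranked 178 in replicate 2 and 108 in replicate 3. The RpL28 summit at chr3L:3222927-3223042 was 44 bp upstream of the TSS and 463 bp from Or-CD11a, with a signal of 158 and rank 464. It was higher in replicate 3, where it ranked 380, than in replicate 2, where it ranked 743. The RpS12 summit at chr3L:13023159-13023568 was 12 bp downstream of the TSS and 216 bp from Me28S-A774b, with a signal of 72, close to the weakest optimal peak. It ranked 2463 in replicate 2, below the strongest 2153 there, and 1724 in replicate 3. In all 4 cases the summit was nearer to the host TSS than to the snoRNA gene.

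The other 5 summits were away from a host promoter. The one nearest to a snoRNA lay inside the Me18S-C1968 gene in Swim, which encodes a secreted protein that binds Wingless, 4179 bp from the nearest Swim TSS. Its peak, chr2R:22197129-22197538, had a signal of 80.1 and rank 1730, and ranked 2206 in replicate 2 and 1740 in replicate 3. The peak chr2R:14624481-14624890 was 356 bp from Or-CD4, a snoRNA gene of Uhg5, with a signal of 76.8. It ranked 2978 in replicate 2 and 1879 in replicate 3. Both of these hosted cases were in the weaker part of the optimal list, and neither was among the strongest 2153 of replicate 2.

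The remaining 3 summits accounted for all 4 snoRNA genes without a host that had one, out of 22 (18.2%). The snoRNA gene FBgn0065076 was 81 bp from a summit of signal 110.0 at chr2R:19727028-19727437, which lay 298 bp from the start of a tRNA gene, tRNA:Glu-TTC-1-5. That summit ranked 846 in replicate 2 and 1270 in replicate 3. Or-CD13 and Or-ACA6 shared a summit of signal 107, at 446 and 482 bp, inside the body of egr, which encodes the fly tumour necrosis factor. It ranked 1020 in replicate 2 and 1026 in replicate 3, with no TSS of another gene closer than 3362 bp.

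MeU1:95C-A24, named as a guide for the U1 RNA, was 450 bp from a summit of signal 108 that lay inside the U1 gene snRNA:U1:21D, 128 bp from its TSS. It ranked 1122 in replicate 2 and 1070 in replicate 3. These 3 summits ranked among the strongest 2153 of each replicate. Of the 22 snoRNA genes without a host, 15 (68.2%) had a pooled candidate of some strength within 500 bp, against 51 of the 247 with a host (20.6%).

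Just inside the 500 bp limit were U49:66Da at 490 bp and Or-ACA6 at 482 bp. Just outside it were Psi28S-1232 of RpL17 at 518 bp from a summit of signal 144, Me18S-C1096 of RpL3 at 540 bp from one of 101, and lola-a at 546 bp from one of 81.5. For Psi28S-1232 and Me18S-C1096 these were the promoter summits of the host.

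A larger share of host promoters than of snoRNA genes had an optimal summit. Of the 92 hosts, 35 (38.0%) had an optimal summit within 500 bp of a TSS, each a different summit. Among protein-coding hosts it was 34 of 82 (41.5%), against 8.66% of the 13902 protein-coding genes that hold no snoRNA gene. Counted over genes with any pooled candidate at a TSS, it was 50.7% of 67 protein-coding hosts and 21.4% of 5634 others. Protein-coding hosts had a median of 2 annotated TSSs against 1 in the others, which widens the sequence searched, and the part of this in the difference was not tested. Among genes with 1 TSS, 9 of 12 ribosomal protein hosts, 4 of 26 other protein-coding hosts (15.4%) and 5.89% of 10246 protein-coding genes that hold no snoRNA gene had an optimal summit there.

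By class of host, ribosomal protein hosts had one in 18 of 28 cases (64.3%), other protein-coding hosts in 16 of 54 (29.6%) and noncoding hosts in 1 of 10. Ribosomal protein genes that hold no snoRNA gene had one in 32 of 64 cases. These 64 were taken by symbol and include genes named as -like. RpL22-like, RpL24-like and RpS28-like had no candidate, RpL7-like had a weaker one and RpLP0-like had an optimal summit. The part of such genes in the difference from the hosts was not tested. Where a candidate was present, the shares were 69.2% of 26 ribosomal protein hosts and 62.7% of 51 ribosomal protein genes without a snoRNA gene. For the other protein-coding hosts, the matching genes are those that hold no snoRNA gene and encode no ribosomal protein, of which 8.47% had an optimal summit. Over genes with a candidate it was 39.0% of 41 such hosts and 21.0% of 5583 such genes. For noncoding hosts, 3.04% of ncRNA genes without a snoRNA gene had one, or 12.2% of those with a candidate, and a single host, Uhg4, makes up the host share.

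**Figure D2:**
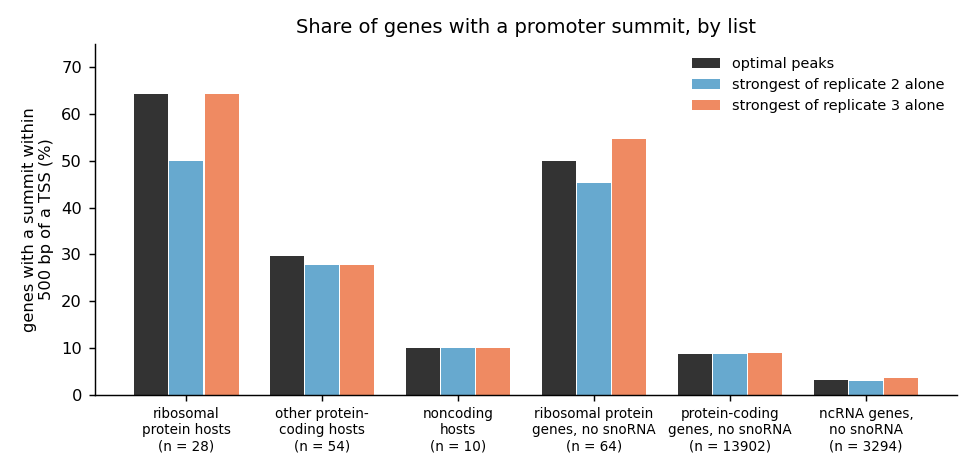
Share of genes with a summit within 500 bp of a TSS (%), for 3 classes of host and 3 groups of genes without a snoRNA gene, in the optimal list and in the strongest 2153 candidates of each replicate alone. Bars start at 0 and are shares of the n genes printed under each group, with no error bar since each is 1 count. Ribosomal protein hosts stand at 18, 14 and 18 of 28 in the 3 lists, and protein-coding genes without a snoRNA gene at 8.66%, 8.71% and 8.82%.

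The number of snoRNA genes held did not order the hosts. An optimal promoter summit was present at 18 of 55 hosts with 1 snoRNA gene (32.7%), at 12 of 23 with 2 to 4 (52.2%) and at 5 of 14 with 5 or more (35.7%). These 14 hosts held 129 snoRNA genes, and the 5 with a summit were RpL28, RpS16, RpS5a, RpS7 and Uhg4. Of the hosts with the most snoRNA genes, Arpc2 reached a signal of 34.5 at its promoter, Uhg1 43.6 and dom 36.6, all under the weakest optimal peak.

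The ribosomal protein hosts with the strongest summits encode proteins of both subunits. RpL13A, of the large subunit, had a signal of 269, with 109 in replicate 2 and 154 in replicate 3, at ranks 241 and 102. Close to it were RpL14, given above, and RpL30 with 249, at ranks 198 in replicate 2 and 120 in replicate 3. RpL22 had 189.8, at ranks 543 and 244 in replicates 2 and 3. All of these large-subunit genes ranked higher in replicate 3 than in replicate 2.

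RpS4 had a signal of 182 at ranks 406 in replicate 2 and 327 in replicate 3, and RpS20 had 175 at ranks 326 and 479. RpL11 had 172 at ranks 397 and 406, so these 3 stood at a like height in both replicates. Of the rest, RpL28 had 158, RpL4 153, RpS3A on chromosome 4 147, RpL17 144, RpS16 139 and RpL3 101. The weakest were sta, which encodes the small-subunit protein SA, at 91.9, RpL27A at 90.3, RpS7 at 84.5, RpS5a at 81.2 and RpS12 at 72. RpS5a carries 14 snoRNA genes and ranked 1210 in replicate 2 and 2294 in replicate 3. The widest gap between replicates was at sta, ranked 3948 in replicate 2 and 624 in replicate 3. The median over the 18 was 149.6, against 118 over the 32 ribosomal protein genes without a snoRNA gene, and the ranges overlapped, at 72 to 269 and 73.2 to 389.7.

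The 10 ribosomal protein hosts without an optimal promoter summit were not empty of signal. RpL7A reached 67.1, RpS29 65.4, RpL36A 55.8 and RpL10Ab 54.7, and each of these summits was within 20 bp of the TSS. RpL7A was among the strongest 2153 of replicate 3, at rank 1543, and ranked 6023 in replicate 2. RpL15 had no pooled candidate within 500 bp of a TSS. The strongest of these, 67.1, was close to the weakest optimal one of the class, 72.

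**Figure D3:**
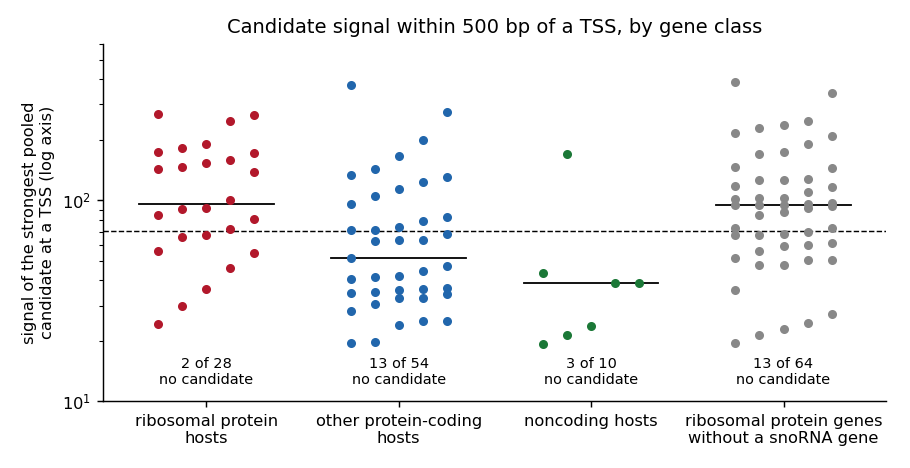
Signal of the strongest pooled candidate within 500 bp of a TSS (log axis), 1 point per gene, for ribosomal protein hosts, other protein-coding hosts, noncoding hosts and ribosomal protein genes without a snoRNA gene. Solid lines are medians of the genes shown, the dashed line is the weakest optimal signal, 70.5, and the genes without a candidate are counted below. The single noncoding point above the line is Uhg4, at 170.3.

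The strongest of the other protein-coding hosts was Stt3A, the catalytic subunit of the oligosaccharyltransferase, with a signal of 375 and ranks 74 in replicate 2 and 59 in replicate 3. Its summit was 408 bp upstream of the Stt3A TSS but 201 bp from that of bves. CG1142 had 276 at 199 bp from its TSS, ranked 103 in replicate 2 and 206 in replicate 3, and its scaRNA MeU5-C46 was 758 bp from the summit. CG12316 had 199.

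Of the genes of the translation machinery, pAbp, the poly(A)-binding protein gene, had 134, and eEF1alpha1, the elongation factor that delivers tRNA to the ribosome, had 131. Both had like ranks in the replicates, with pAbp at 670 in replicate 2 and 742 in replicate 3 and eEF1alpha1 at 704 and 773. For pAbp, the replicate 3 candidate of rank 742 lay near the summit but over 500 bp from any pAbp TSS. Within 500 bp of a pAbp TSS, the strongest candidate of replicate 3 ranked 9517. Of the genes for large structural proteins, Msp300, a nesprin of muscle nuclei, had 166, Dys, the dystrophin gene, had 95.6 and hts, the adducin gene, had 73.6. lola, a family of zinc finger factors from 1 locus, had 144 at its strongest promoter summit and 4 optimal summits in its body.

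Further ones were anchor at 124, drn at 114, mask, a large ankyrin repeat protein of the Hippo pathway, at 105, skd, a Mediator subunit, at 82.8, dmt at 79 and the chromatin remodeller kis at 71.4. The ranks of skd, dmt and kis were uneven between replicates. skd ranked 1465 in replicate 2 and 5743 in replicate 3, dmt ranked 3676 and 1290, and kis 4715 and 1947. The skd candidate of rank 5743 also lay over 500 bp from any skd TSS. Within 500 bp of a skd TSS, the strongest candidate of replicate 3 ranked 17018.

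Of the 16 summits at these hosts, 5 were nearer to the TSS of another gene than to that of the host. Beside Stt3A, they included anchor with Vps60 at 11 bp, dmt with trbd at 32 bp and skd with Pdss2 at 1 bp. At these, the host and its neighbour cannot be told apart as the gene whose promoter carries the summit. Without them, 11 of 54 other protein-coding hosts (20.4%) kept an optimal summit, against 6.42% of protein-coding genes without a snoRNA gene under the same condition. No ribosomal protein host was lost this way.

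The strongest host promoters short of the optimal list outside the ribosomal protein genes were kra, a regulator of translation that holds 8 snoRNA genes, at 68.3, Fib at 63.7, the splicing factor gene Rbfox1 at 63.3, CG42564 at 62.5, Irbp, a Ku subunit of DNA repair, at 51.8 and tou at 47.2. For Fib, which encodes fibrillarin itself, the summit was 46 bp from the TSS, at rank 4656 in replicate 2 and 1878 in replicate 3. kra ranked 5832 and 1218. Swim, Rbfox1 and tou were the 3 hosts with optimal summits in the gene body and none within 500 bp of a TSS. In tou the nearest one, of signal 144, was 596 bp from a TSS, just outside the limit, while pAbp at 487 bp and skd at 480 bp were just inside it.

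The Uhg genes, which exist in large part to carry snoRNAs, were mostly low. Uhg4 alone had an optimal summit, as given above. Uhg1 had 43.6, at ranks 3941 in replicate 2 and 9003 in replicate 3, Uhg5 had 39 and Uhg8 38.7. Uhg2 had 23.6 and Uhg3 21.3, near the low end of the candidates, and Uhg7 had no candidate within 500 bp of its TSS. The signal at Uhg4 was thus far above the next of them, Uhg1.

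Summits at ribosomal protein hosts sat close to the start site. Their median distance to the nearest host TSS was 27.5 bp, between 8 and 153 bp, with 17 of 18 within 100 bp and 15 upstream. At the other protein-coding hosts the median was 155 bp, between 20 and 487 bp, with 7 of 16 within 100 bp and 14 upstream. Only the strongest optimal summit of each host was counted. lola, counted at 328 bp, also had a weaker optimal summit, of signal 86.3, at 7 bp from a TSS. Ribosomal protein genes without a snoRNA gene had a median of 27.5 bp with 31 of 32 within 100 bp, and all protein-coding genes without one had 143 bp. The nearest snoRNA gene of the host was a median of 690.0 bp from the summit at ribosomal protein hosts and 5586 bp at the others. Host bodies had median lengths of 1766 bp and 5510.5 bp in these classes. In each of the 35, the host TSS was nearer to the summit than any snoRNA gene of the host. This order was largely set by the choice of summits within 500 bp of a host TSS. Of the 247 hosted snoRNA genes, 212 lay farther than that from any host TSS.

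**Figure D4:**
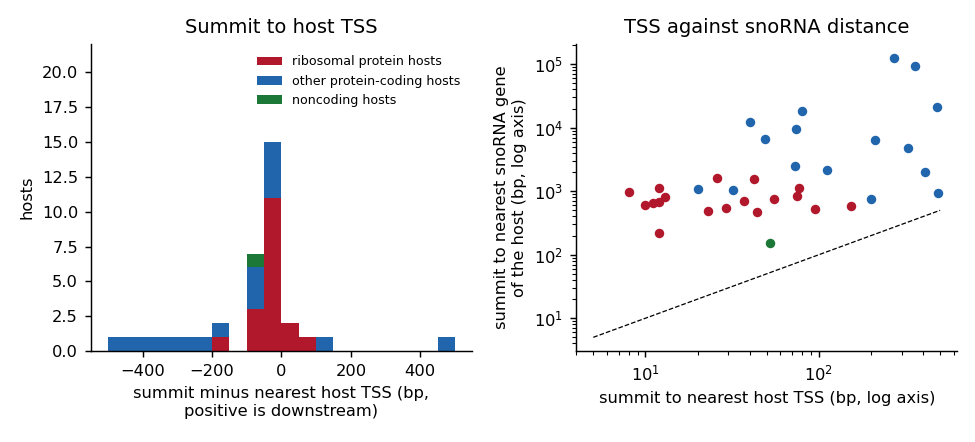
Left, the number of hosts by the position of the promoter summit relative to the nearest host TSS (bp, positive is downstream), stacked by host class in bins of 50 bp. Right, the distance of the same 35 summits to the nearest host TSS and to the nearest snoRNA gene of the host, both on log axes, with a dashed line where both are equal. All 35 points lie above that line, which the choice of summits within 500 bp of a host TSS largely sets. The ribosomal protein hosts lie at 8 to 153 bp from the TSS.

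Both replicates had a candidate within 500 bp at each of the 35 summits. The optimal list was derived from the candidates of these same replicates. Presence in both, and the overlap of hosts given below, are thus in part set by how the list was made. Their ranks ran between 74 and 4715 in replicate 2, with a median of 704, and between 59 and 5743 in replicate 3, with a median of 659. In replicate 2, 29 of the 35 were among the strongest 2153, in replicate 3 it was 32, and 26 were so in both. At ribosomal protein hosts 14 of 18 ranked higher in replicate 3, with median ranks of 666 in replicate 2 and 449.5 in replicate 3, while at the other protein-coding hosts it was 7 of 16. With the strongest 2153 candidates of 1 replicate in place of the optimal list, 34 hosts had a promoter summit in replicate 3 and 30 in replicate 2, beside 8.82% and 8.71% of protein-coding genes without a snoRNA gene. Ribosomal protein hosts were 18 and 14 of these. All 35 hosts of the optimal list were found by at least 1 of the replicates alone, and 25 by both. Beyond the 35, replicate 2 alone added Rbfox1, and replicate 3 alone added Fib, RpL7A and kra.

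**Figure D5:**
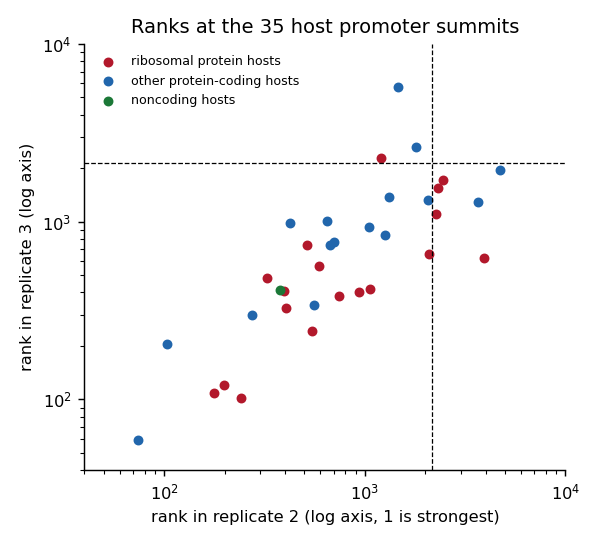
Rank of the candidate at each of the 35 host promoter summits in replicate 2 (horizontal) and replicate 3 (vertical), both on log axes with 1 the strongest, coloured by host class. Dashed lines mark rank 2153, the length of the optimal list, and 26 of the 35 points lie within both lines. The point highest on the plot is skd, at 1465 in replicate 2 and 5743 in replicate 3.

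The promoter sequences of hosts were searched for 6 words in the 300 bases between 250 before and 50 after the 5′-most TSS, on both strands, and set beside 17112 promoters of other protein-coding and ncRNA genes. TATCGATA, the element bound by DREF, stood in 8 of 28 ribosomal protein hosts (28.6%) and 10 of 54 other protein-coding hosts (18.5%), against 7.77% of the other promoters. GGTCACAC, the core of Motif 1, stood in 5 (17.9%) and 5 (9.26%) of these hosts, against 6.36%. TCTTTT, the core of the TCT initiator, stood anywhere in 13 (46.4%) and 19 (35.2%), against 29.8%. Starting within 10 bp of the TSS on the gene's strand it was present in 6 of 28 ribosomal protein hosts (21.4%), against 0.993%, and the shorter CTTT, which TCTTTT contains, in 14 of 28, against 10.9%. Ribosomal protein genes that hold no snoRNA gene had like shares, with TCTTTT near the TSS in 15 of 64 (23.4%), CTTT there in 33 (51.6%) and TATCGATA in 20 (31.2%).

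TAATTA, a core bound by many homeodomain proteins, stood in 9 of 28 ribosomal protein hosts (32.1%) and 12 of 54 others (22.2%), against 19.8% of the other promoters. TATAAA stood in 13 of 28 (46.4%), against 43.8%, and GAGAGAG in none of the 28, against 5.70%. Between hosts with and without an optimal promoter summit, TAATTA stood in 8 of 35 and 15 of 57, and TATCGATA in 6 of 35 and 12 of 57. CTTT near the TSS stood in 15 of 35 hosts with a summit (42.9%) and 12 of 57 without (21.1%). Within the ribosomal protein hosts, it was 10 of 18 with a summit and 4 of 10 without, and the printed promoters of RpL15, RpS6 and RpS9 are among these 4. These counts are matches of letters and no measure of binding.

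A list of 32 genes of snoRNP assembly, snoRNA processing and, since spliced Uhg transcripts are known targets of it, nonsense-mediated decay was examined next, with 4 names matched by a synonym. A pooled candidate lay at a TSS of 14, and 2 (6.25%) had an optimal summit, against the 8.66% of protein-coding genes given above. They were Csl4, a subunit of the exosome that trims snoRNA ends, with a signal of 109 at 171 bp, and Smg5, a factor of nonsense-mediated decay, with 170.1 at 60 bp. The 8 core proteins of both classes had no optimal summit. Fib, given above, had the strongest candidate of them, Nop10 had 37.6, hoip, which binds the C/D fold, 37.2, Nop60B 32.8, NHP2 29.8 and nop5 25.2, and Nop56 and Gar1 had no candidate at a TSS. Nopp140, a chaperone of snoRNPs in the nucleolus, had 53.7, and the helicases pont and rept, which take part in snoRNP assembly, had 53.6 and 57.9. Fib, nop5 and Nop60B are also hosts, and Nop60B holds 7 snoRNA genes.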

How the data were processed

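Peak lists in narrowPeak layout were used in build dm6: the candidates of replicates 2 and 3 and of the pool, and the optimal list. Per the deposited README files, each list of candidates came from alignments with 1 further file that both replicates share, and the optimal list was derived from these lists. No source used here names the aligner, the peak caller or the IDR threshold. The deposited signal value per region is the authors' own and is not comparable between lists. Deposited −log10 q-values were not used. Gene models came from Ensembl release 115 (BDGP6.54) and sequence from the Release 6 assembly, and no dm6 region ran past a chromosome end. Summits were start plus offset. Host TSSs were all annotated ones of the gene. Ribosomal protein genes were taken by symbol. The search was tested on simulated summits. Counts were made in Python 3.11.15 with numpy 2.4.6, and figures with matplotlib 3.10.9. The members, lists and words were chosen with earlier results of these data known. Named were members with an optimal summit, the Uhg genes, the 10 strongest hosts short of it, members at the limit, and snoRNP genes with a summit; others named, among them the hosts with most snoRNA genes, the U3 genes and the snoRNP core proteins, were chosen after their values were seen. Some members are not reported here by name. No test of a set was made. The alternatives were other windows, a higher signal minimum, each replicate alone, summits in coding exons kept, overlap in place of summit distance, and other definitions of host and TSS.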

Additional observations from a re-analysis of the deposited data

How the results depend on the processing

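The counts at snoRNA genes moved with the window. Within 250 bp, 4 snoRNA genes had an optimal summit, at 4 summits of which 2 were at a host TSS, and within 1000 bp it was 42 genes at 25 summits, 19 of them at a host TSS. With an overlap of at least 1 bp of the peak in place of the summit distance, it was 19 genes at 16 summits, 10 of them at a host TSS. Restricting the optimal list to signals at or above its median left 23 hosts, 10 other protein-coding hosts and 18 ribosomal protein genes without a snoRNA gene, beside 11.4% of protein-coding genes without a snoRNA gene that have a candidate and 4.64% of all of them. For genes with 1 annotated TSS, an alternative added after seeing the data, it was 14 hosts, 9 of 12 ribosomal protein hosts and 4 of 26 other protein-coding hosts (15.4%). These settings search less or more sequence, or fewer genes or peaks, by construction. The other 72 values, taken as counts where they are counts, stayed within 1.5 times the reported one. Leaving out either replicate gave 9 to 11 snoRNA genes and 30 to 34 hosts. Counting every gene that holds a snoRNA gene gave 36 of 95 hosts, and counting the snoRNA genes of 1 host once gave 10 of 114, a share of 8.77% against 4.09% as reported. No paired analysis was possible because there is 1 group. With no read counts, depth is unknown and no error per region can be given.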

Other observations

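Uhg7 lies inside the body of the ribosomal protein gene RpL23A on the same strand, and the shorter gene was taken as the host. RpL23A had an optimal summit of signal 251, rank 165, at 71 bp from its TSS and 1418 bp from that of Uhg7. It is the gene that raises the count of hosts to 36 when every holding gene is counted. CG42564, among the strongest hosts short of the optimal list, had a candidate in replicate 2 at rank 4096 and none in replicate 3 within 500 bp of its TSS. Summits in coding exons were left out throughout. With them kept, 99 snoRNA genes (36.8%) had a pooled candidate within 500 bp, and the count with an optimal summit stayed at 11.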
